A study of Mus musculus with 768 samples.

Results

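Mural cells, marked by pericyte and smooth muscle genes, took up 88 wells of the 658 kept wells of single cells sorted for the Nestin:GFP reporter from the dentate gyrus, a hippocampal region with adult neurogenesis. A kept well was a member when at least 3 of Vtn, Rgs5, Pdgfrb, Myl9 and Rgs4 reached 50 CPM (counts scaled by the total of the well), with fewer than 3 of 5 endothelial and fewer than 3 of 5 oligodendrocyte markers at that level. A smooth muscle subset of 21 members had Myh11, smooth muscle myosin heavy chain, at 50 CPM or more, and the other 67 did not. The members were selected on these levels, so the marker levels describe the choice and carry no test.

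Mural cells are the contractile and supporting cells that wrap blood vessels: pericytes lie on capillaries, and smooth muscle cells ring arterioles and larger vessels. They are recruited by endothelial PDGF-B acting on the receptor Pdgfrb, share the basement membrane with the endothelium, and adjust vessel width through G protein-coupled receptors, ATP-sensitive potassium channels and actomyosin. In the brain they also take part in the blood-brain barrier.

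The 4 miR-132 mice (numbers 2, 4, 6 and 8) received a miR-132 mimic, a synthetic form of this small regulatory RNA, and the 4 control mice (1, 3, 5 and 7) a negative control oligonucleotide. All 8 were male Nestin:GFP reporter mice, 2 months old when treatment began, and were given 150 pmol of oligonucleotide in 3 µl with lipofectamine 2000 once a week for 5 weeks. The reporter places GFP under control of Nes regulatory sequence, so only cells with reporter signal entered the wells, and shares of wells are shares of sorted cells. The labels date mice 1 to 4 to 17 April 2018 and mice 5 to 8 to 19 April 2018, with 2 mice of each treatment on each date. They carry 2 maps from wells to mice, which give 11 of the 88 members the same mouse and 47 the same treatment. All values by mouse use the map written in the sample descriptions, under which each of the 8 mice had 2 of the 16 wells with over 6000 genes, whereas in the map by sample titles 5 mice had none.

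The mature strand miR-132-3p is shown because its mimic is the treatment, with bases 2 to 8, the seed that pairs with target messenger RNAs, in capitals. RefSeq places it on chromosome 11 of GRCm38.p6, at chr11:75173723-75173744 on the plus strand. The labels name the mimic and do not print its letters, so the line shows the natural mature sequence.
mmu-miR-132-3p: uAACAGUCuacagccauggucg

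Members had 101030 to 1116183 counts, with a median of 625801, and 1158 to 3190 genes, with a median of 2012. Other kept wells had a median of 649743 counts and 2824 genes. Of the members, 78 held all 5 markers, 5 held 4 and 5 held 3. Of the kept wells that were not chosen, 18 held 2 markers, 59 held 1 and 491 held none. Another 2 kept wells had 3 or more mural markers but 4 endothelial ones, with Cldn5 at 8665 and 11104 CPM, and were left out by the rule.

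Markers of other cell types were at or near 0 in most members. No member had any of the 5 oligodendrocyte markers at 50 CPM, 68 had none of the endothelial markers, 19 had 1 and 1 had 2. Summed over 7 oligodendrocyte genes, members stayed between 0 and 40.8 CPM. Of 8 microglial and macrophage genes, 5 had no count in any member, Cx3cr1, P2ry12 and C1qa among them, while Tmem119 was at 50 CPM in 2 members and Mrc1 in 1, and the summed list reached 1486 CPM. The 6 astrocyte genes summed to as much as 4391 CPM in a member, with Slc1a3 at 50 CPM in 13, and the 5 oligodendrocyte precursor genes to 1651 CPM, of which Pdgfra, also a fibroblast gene, reached 1648 CPM. All 3 lists had a median sum of 0 over members. The 5 neuroblast genes summed to at most 7.57 CPM. The 12 endothelial genes summed to as much as 2967 CPM in a member, with a median of 2.21 CPM. Among them, Flt1 was at 50 CPM in 13 members, and Cldn5 reached 733.1 CPM. The endothelial transcription factor Sox17 was at 0, and Pecam1 reached 0.0341 CPM on average, against 1220.6 CPM in endothelial wells.

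**Figure D1:**
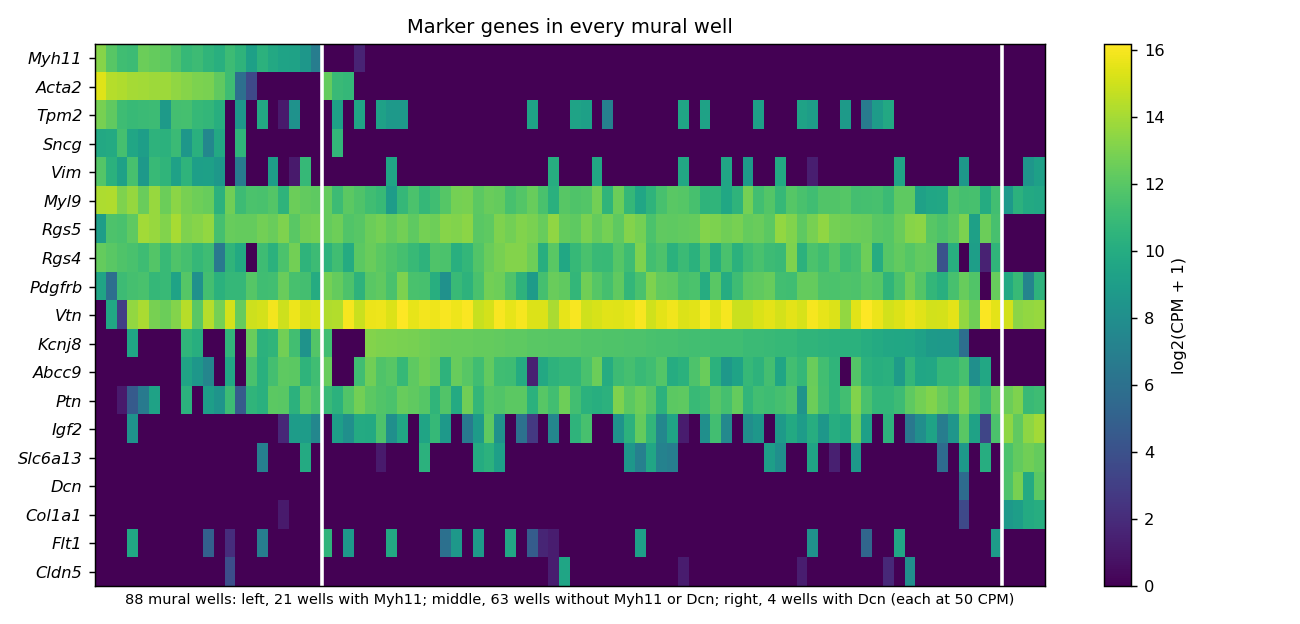
Level of 19 marker genes (rows) in each of the 88 mural wells (columns), as log2(CPM + 1), with dark blue at 0. Columns are split by white lines into 21 wells with Myh11, 63 wells with neither Myh11 nor Dcn, and 4 wells with Dcn, each at 50 CPM. Kcnj8 and Abcc9 are both dark in 9 of the 14 wells with Myh11 and Acta2, and Rgs5 and Rgs4 are dark in all 4 wells with Dcn.

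The 5 genes of the rule also had the 5 largest mean differences from other kept wells. Vtn encodes the secreted adhesion protein vitronectin, and its median over the 88 wells was 40135 CPM, with a highest value of 73481 CPM. Rgs5 and Rgs4, which switch off G protein signals, had medians of 5781 and 2289 CPM, and Pdgfrb had a median of 2878 CPM. Myl9, the regulatory light chain of smooth muscle myosin, was the only one of the 5 at 50 CPM or more in all 88 members. Mean Vtn per mouse lay between 30172 and 47125 CPM in mural wells, while the highest mouse mean in other kept wells was 1296 CPM.

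Beyond the genes of the rule, the largest differences from other kept wells, averaged over mice as log2(CPM + 1), belonged to Cd248 (10.03), Atp13a5 (9.99), Higd1b (9.62), Sod3 (9.60) and Gper1 (9.57). Cd248 encodes the surface protein endosialin, Sod3 the secreted superoxide dismutase and Gper1 a G protein-coupled oestrogen receptor. Higd1b was at 50 CPM in 82 of 88 members and in 1 of 570 other kept wells. Adap2, a regulator of Arf GTPases, was likewise found in 80 members and 1 other well. Per kilobase of exon, mean levels were 18766 CPM for Vtn, 3407 for Myl9, 1833 for Igfbp7, 1594 for Higd1b, 1378 for Rgs5, 903 for Rgs4 and 566 for Pdgfrb.

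Of 28 listed pericyte genes, 16 were at 50 CPM in at least 50% of members and 1 had no count in any. Of 27 listed pericyte genes detected in at least 10% of mural wells, 23 were higher in mural than in other kept wells in each of the 8 mice, beside 475 of all 6424 genes measured that often (7.39%). These counts describe wells chosen by genes of this kind. Kcnj8 and Abcc9 encode the pore and the sulphonylurea receptor subunit of the vascular ATP-sensitive potassium channel. Kcnj8 was at 50 CPM in 68 members and in 0 of the 570 other kept wells, where its mean was 0.0445 CPM. Abcc9 was found in 69 members and 2 other kept wells. Both genes lie on the minus strand of chromosome 6 in the mm10 annotation, at chr6:142564837-142571614 for Kcnj8 and chr6:142587862-142702315 for Abcc9. Their levels correlated over the 88 wells with Pearson's r of 0.80 (log2(CPM + 1), a description over wells that share mice and depth).

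Classical surface markers were less uniform. Cspg4 (NG2) was at 50 CPM in 74 members and Mcam (CD146) in 64, although Mcam was also found in 42.8% of other kept wells. Anpep (CD13) was found in only 25 members, Tbx18 in 8, and Nkx3-2 had no count in any. Of the 3 subunits and factors linked to mitochondria and low oxygen, Ndufa4l2, Cox4i2 and Higd1b, each was at 50 CPM in 76 to 82 members and higher than in other kept wells in all 8 mice.

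Nes, whose regulatory sequence drives the reporter used for sorting, was at 50 CPM in 78 of 88 members, with a mean of 350.5 CPM, against 64.2 CPM in other kept wells and 203.2 CPM in endothelial wells. Mean Nes per mouse in mural wells lay between 163.6 and 501 CPM. The sort is made on a reporter of this gene, so its presence in the wells is part of the choice.

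Of 35 listed receptors and effectors of vessel tone in the table, 8 were at 50 CPM in at least 50% of members and 4 had no count in any. Of the 20 with a count in 10% of members, 17 were higher in mural than other kept wells in all 8 mice and 1 was lower, beside 475 and 688 of all 6424 genes. As for the signalling and matrix lists described next, the filter was set on mural wells, so these counts are a description only. S1pr3, a receptor for sphingosine 1-phosphate, was found in 68 members with a mean of 1589.8 CPM. P2ry14, a receptor for UDP sugars, was found in 69, the endothelin receptor gene Ednra in 62, and the thromboxane receptor gene Tbxa2r in 52. Receptors for angiotensin (Agtr1a), vasopressin (Avpr1a) and serotonin (Htr2a) had no count in any member. Among potassium channels, Kcnmb1, the smooth muscle accessory subunit of the large-conductance calcium-activated channel, had a mean of 198.5 CPM, whereas its pore gene Kcnma1 had 0.0187 CPM. A gene listed at 0 in these wells may lie below detection in single cells.

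Signalling genes that tie mural cells to the endothelium were present in part. Notch3, the main Notch receptor of mural cells, was at 50 CPM in 75 members, and the Notch target Heyl in 69. Heyl averaged 1048 CPM in members, 6.43 CPM in other kept wells and 0.0155 CPM in endothelial wells. Among ligands, the angiopoietin gene Angpt1 was found in 11 members and Vegfa in none. Of 25 listed signalling genes measured in 10% of wells, 12 were higher in all 8 mice and 1 was lower.

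Matrix genes were led by Sparcl1, with a median of 5452 CPM, and Mfge8, with 2902 CPM. Nidogen Nid1 was found in 66 members, collagen IV gene Col4a1 in 54 and laminin genes Lama2 and Lamc1 in 54 each. Fibronectin (Fn1) was found in 1 member, against a mean of 1347 CPM in endothelial wells, and Timp1 in none. Of 25 listed matrix genes, 14 were higher in mural wells in all 8 mice.

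Members were compared by Myh11. All 22 contractile genes measured in 10% of mural wells had a higher mean log2 level in the 21 wells with Myh11 than in the other 67, and 16 of them differed by 2 or more. Over all 6424 genes measured, 60.7% were higher, 5.31% were higher by 2 or more and 0.856% lower by 2 or more. The medians of the differences were 3.49 for the contractile list and 0.20 for all genes. Myh11, which selected the subset, is among the 22, and Myl9 is a gene of the membership rule. The 10% filter also counted the 21 wells with Myh11, so a gene found mainly in those wells could enter through them. Of the 26 listed contractile genes, 22 could be tested for the mimic in all mural wells and 14 without the subset. The counts are therefore a description only.

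Acta2, smooth muscle actin, averaged 8878 CPM in wells with Myh11 and 132.9 CPM in wells without it. It was at 50 CPM in 14 of the 21, where it reached 41829 CPM, and in 3 of the 67. Next by difference in log2 level came Sncg (5.94), Ppp1r12b (5.53), Vim (5.46) and Tpm2 (5.23). Ppp1r12b encodes a subunit of myosin phosphatase, Vim the filament protein vimentin, and Tpm2 beta-tropomyosin. Vim averaged 870.3 CPM in wells with Myh11, 113.5 CPM in wells without it and 245.4 CPM in other kept wells. Myocd, the coactivator of smooth muscle genes, was found in 7 of 21 wells with Myh11 and had no count in the other 67.

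On the other side, Igf2 (-5.76), the organic anion transporter gene Slc22a8 (-4.91) and the growth factor gene Ptn (-4.74) had the lowest values of the difference. Igf2 averaged 69.6 CPM in wells with Myh11 and 1447 CPM in wells without it, or 870.6 CPM in the 63 of these without Dcn. Ptn averaged 1196 CPM in wells with Myh11 and 3707 CPM in wells without it, and all 67 wells without Myh11 had it at 50 CPM. Kcnj8 and Abcc9 differed by -3.91 and -4.05, and each was at 50 CPM in 11 of 21 wells with Myh11. Rgs5 did not follow this split, with 7274 CPM on average in wells with Myh11 and 5950 CPM in wells without it.

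**Figure D2:**
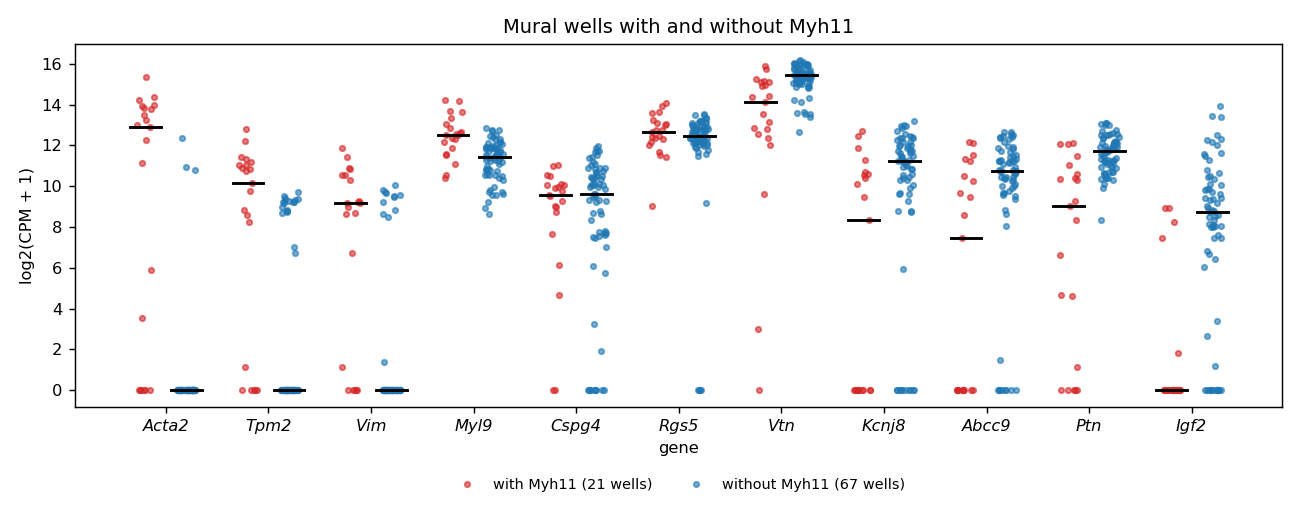
Level of 11 genes in each mural well as log2(CPM + 1), with the 21 wells with Myh11 in red on the left of each pair and the 67 without it in blue on the right. Black lines are medians. Most wells without Myh11 have Acta2, Tpm2 and Vim at 0, and Rgs5 overlaps between both sets.

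The wells with Myh11 fell into 2 kinds by Acta2. The 14 wells with Acta2 had Myh11 between 1175 and 9564 CPM, and 9 of them had neither Kcnj8 nor Abcc9. The 7 wells without Acta2 had Myh11 between 116.1 and 1345 CPM, and all 7 had Kcnj8 or Abcc9. Vtn had a median of 7294 CPM in the 14 wells and 36123 CPM in the 7. Sncg was at 0 in all 7 and the median of Tpm2 was 0, so these 7 went against the smooth muscle label. The other 67 members had Myh11 at 2.06 CPM or less, 66 of them at 0, so no member lay between 2.06 and 116.1 CPM. Among these 67, 60 had Kcnj8 or Abcc9. The 3 with Acta2 came from miR-132 mice 4 and 6.

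Over all 88 wells, the genes most like Myh11 were Acta2 and Sncg (Pearson's r 0.76 each), Tagln (0.75), Cav1 (0.72) and Map3k7cl (0.71). Those most like Rgs5 were Higd1b (0.78), Igfbp7 (0.72), Cald1 (0.70), Rgs4 (0.69) and Mfge8 (0.63), and those least like it Vwa1 (-0.92) and Vcam1 (-0.82). The Rgs5 values rest on the 4 wells with Dcn, which alone had Rgs5 at 0. Over the other 84 wells, in a repeat chosen after seeing the data, r with Rgs5 was 0.34 for Higd1b, -0.041 for Igfbp7, 0.49 for Cald1, 0.11 for Rgs4, 0.080 for Mfge8, 0.068 for Vwa1 and -0.090 for Vcam1. Without those wells, Acta2 and Sncg had an r of 0.76 each with Myh11. These are descriptions on log2(CPM + 1) over wells that share mice and depth.

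Contractile genes are known to be driven by serum response factor at CArG boxes, so the promoters in RefSeq (GRCm38.p6, 250 bases before to 50 after the gene start) were searched for this motif on both strands. The motif is its own reverse complement. It was found in 535 of 32851 promoters (1.63%). Counted by gene, 488 of 27025 held it. Of 20 contractile list genes with an entry, 4 held it (Filip1l, Myl6, Myl9 and Vcl), as did Asb2, 1 of 11 genes with an entry among the 15 highest in wells with Myh11, and 0 of 25 pericyte list genes with an entry. Actg2, Map3k7cl, Myh11, Myocd, Nrip2 and Tagln of the contractile list had no entry. Asb2 averaged 493.1 CPM in wells with Myh11 and 25.5 CPM in wells without it. Vcl encodes vinculin, and Asb2 a subunit of a ubiquitin ligase of muscle. A match is a description of the letters only. The promoters of Myl9, Asb2 and Vcl are shown because these 3 genes span the rule, the subset and the contractile list, with the box in capitals. They lie at chr2:156775214-156775513 (plus strand), chr12:103355952-103356251 (minus strand) and chr14:20929148-20929447 (plus strand), with the boxes starting at -161, -64 and -227 from the gene start.
Myl9: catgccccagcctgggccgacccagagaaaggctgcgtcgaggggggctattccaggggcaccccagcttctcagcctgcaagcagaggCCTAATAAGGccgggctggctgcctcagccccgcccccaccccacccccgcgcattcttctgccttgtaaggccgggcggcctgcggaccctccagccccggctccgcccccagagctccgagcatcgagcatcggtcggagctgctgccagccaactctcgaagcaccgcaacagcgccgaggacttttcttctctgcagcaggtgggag
Asb2: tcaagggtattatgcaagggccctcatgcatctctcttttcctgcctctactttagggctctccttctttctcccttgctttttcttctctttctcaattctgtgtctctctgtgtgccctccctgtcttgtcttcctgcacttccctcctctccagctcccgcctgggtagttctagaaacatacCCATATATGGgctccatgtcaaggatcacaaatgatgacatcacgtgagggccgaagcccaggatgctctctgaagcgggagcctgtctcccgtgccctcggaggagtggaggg
Vcl: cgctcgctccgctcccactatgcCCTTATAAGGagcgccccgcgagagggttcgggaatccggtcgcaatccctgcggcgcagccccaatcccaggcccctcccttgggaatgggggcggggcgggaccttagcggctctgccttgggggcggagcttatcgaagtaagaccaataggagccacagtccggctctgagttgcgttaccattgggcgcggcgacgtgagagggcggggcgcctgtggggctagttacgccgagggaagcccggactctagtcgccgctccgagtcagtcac

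Another 4 members went against the mural label. They had Vtn (10598 to 34606 CPM), Pdgfrb and Myl9 but Rgs5 and Rgs4 at 0. They held Dcn at 938 to 7464 CPM, Col1a1 at 404 to 1074 CPM and Slc6a13, a GABA transporter gene, at 3079 to 6408 CPM, and Kcnj8, Abcc9, Higd1b and Notch3 were at 0 in all 4. Dcn and Col1a1 encode a proteoglycan and a collagen of fibroblasts, and no other member had either at 50 CPM. Other genes of the fibroblast list were mixed. Pdgfra was at 50 CPM in 3 of the 4 and in 0 of the other 84 members, and Col1a2 in all 4 and in 12 of the 84. Fbln1 went the other way, at 0 in all 4 and at 50 CPM in 11 of the 84. Slc6a13 was at 50 CPM in 18 of the 84 and Igf2 in 51. Igf2 reached 15419 CPM in these wells, and Igfbp2 was found in all 4 and in 1 of the other 84 members. They came from mice 2, 7 and 8, with 2 wells from miR-132 mice and 2 from control mice. Of 10 kept wells with 2 of the 5 markers and fewer than 3 endothelial markers, 8 had Dcn at 1739 to 9327 CPM and Rgs5 below 50 CPM, so such wells lie on both sides of the limit of 3 markers.

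Fos and other immediate early genes, which respond to stimulation and to tissue dissociation, marked a minority of members. Fos was at 50 CPM in 12 of 21 wells with Myh11 and in 15 of 67 without it. Of 16 such genes measured in 10% of wells, 13 were higher on average in wells with Myh11 (81.2%), beside 60.7% of all genes. The filter again counted the wells with Myh11, so this count is a description only. The part of dissociation in the difference was not tested.

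Mural wells made up 8.89%, 10.96%, 11.9% and 16.9% of kept wells in miR-132 mice 2, 4, 6 and 8, and 12.6%, 6.94%, 8.43% and 30% in control mice 1, 3, 5 and 7. Control mouse 7 stood above the others, with 24 of 80 wells (exact 95% interval 20.3 to 41.3%). The mean share was 12.2% ± 3.38 in miR-132 mice and 14.5% ± 10.6 in control mice (SD, n = 4 each), a difference of -2.35 percentage points (exact permutation test over 70 splits, two-sided p = 0.857, smallest possible 0.0286). Without control mouse 7 the difference was 2.81 points (p = 0.343, exact permutation test). The difference was 0.130 points among mice of 17 April and -4.84 points among mice of 19 April, with 2 mice a group in each. The share was 16.8% ± 9.46 on 19 April and 9.86% ± 2.48 on 17 April (SD, n = 4 each, p = 0.2, exact permutation test). A sorted share cannot tell fewer mural cells from fewer with reporter signal.

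The smooth muscle subset held 1 of 8, 4 of 8, 1 of 10 and 4 of 15 mural wells in miR-132 mice 2, 4, 6 and 8, and 4 of 11, 0 of 5, 1 of 7 and 6 of 24 in control mice 1, 3, 5 and 7. The 0 of 5 in control mouse 3 allows a share of up to 60% by a floor of 3 counts, and the exact 95% interval, as drawn in the plot of shares, ends at 52.2%. Its share averaged 24.8% ± 18.3 in miR-132 mice and 18.9% ± 15.5 in control mice (SD, n = 4 each, exact permutation p = 0.686). The difference of 5.88 points turned to -10.8 by the title map, -0.42 without control mouse 3 and -2.52 without miR-132 mouse 4. The subset is set by Myh11 alone and includes the 7 wells without Acta2 and with Kcnj8 or Abcc9. The only subset wells of mice 5 and 6 are among these 7. The median number of genes per mural well averaged 1987 ± 222.1 in miR-132 mice and 2008 ± 151.7 in control mice (SD, n = 4 each, exact permutation p = 0.914), and median counts averaged 648912 ± 48699 and 577960 ± 47624 in miR-132 and control mice (exact permutation p = 0.0857, n = 4 each). Intervals and limits cover counting error only.

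**Figure D3:**
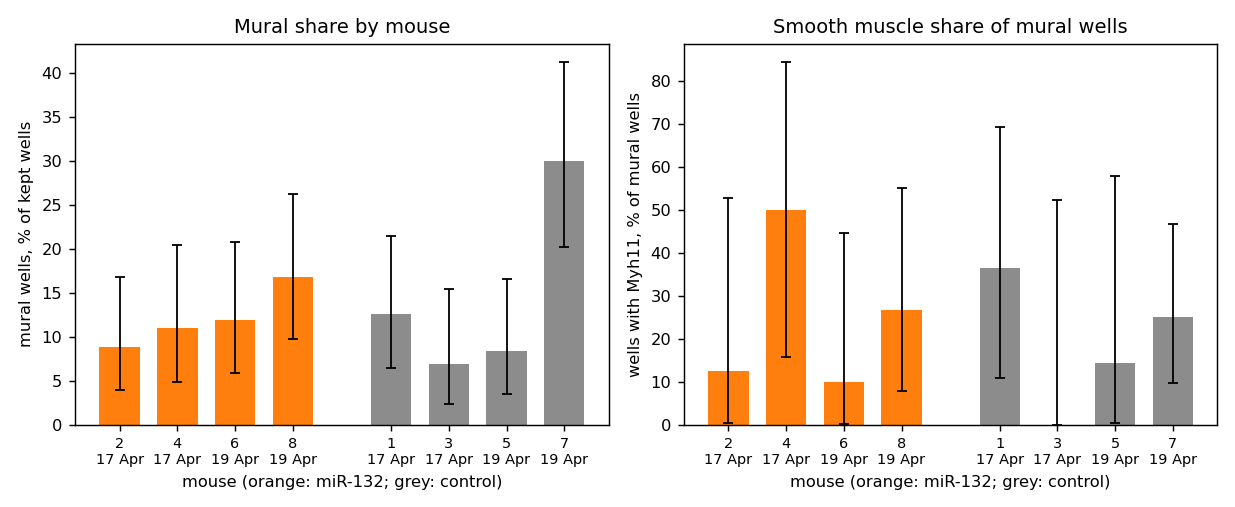
Mural wells as a percentage of kept wells (left) and wells with Myh11 as a percentage of mural wells (right), for 4 miR-132 mice (orange) and 4 control mice (grey), with exact 95% binomial intervals and the date of each mouse. Control mouse 7 has the highest mural share, 30%, and control mouse 3 has no well with Myh11.

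To ask whether the mimic changed mural expression, counts were summed over the mural wells of each mouse (2852962 to 16344237 counts) and tested with edgeR. No gene passed: 0 of 6014 were called at an adjusted p of 0.05 (0%), 46 had an unadjusted p under 0.05 (0.765%, 23 higher and 23 lower), and the lowest adjusted p was 1. DESeq2 called 15 genes, 4 higher and 11 lower, among them Mum1, Saa1, Prickle2 and Porcn. Groups of mice did not overlap in 2.34% of the 6014 genes. On simulated counts with the spread fitted to these sums, the edgeR test found 0% of 2-fold, 0% of 4-fold, 4% of 8-fold and 0% of 16-fold changes. Changes of these sizes would thus be missed in nearly all genes.

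The 5 marker genes of the rule had folds between -0.18 and 0.20 on the log2 scale. Wells were chosen on these same genes, so similar levels in both groups are in part set by the rule. Vtn averaged 36581 ± 4791 CPM in miR-132 mice and 40805 ± 5194 CPM in control mice (SD, n = 4 each, log2 fold -0.13 ± 0.09 SE). Rgs5 averaged 6071 ± 1247 and 6736 ± 998 CPM in miR-132 and control mice (n = 4 each). Both pairs of groups overlapped.

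Of 26 pericyte genes tested, 0 were called, 12 had folds above 0 and 14 below it, and the median log2 fold was -0.02, beside 0.08 over all 6014 genes. Kcnj8 had the lowest p of the list. It had 1745, 1348, 1832 and 2774 CPM in miR-132 mice 2, 4, 6 and 8, and 2376, 3852, 2961 and 2793 CPM in control mice 1, 3, 5 and 7. Of the miR-132 mice, 3 lay below all controls and mouse 8 among them, with a log2 fold of -0.62 ± 0.26 (SE, edgeR unadjusted p = 0.037, adjusted p = 1). With wells mapped by title the fold was -0.058. In mural wells without the smooth muscle subset the fold was -0.50 ± 0.29. Its partner Abcc9 had a fold of -0.45 ± 0.32 in all mural wells (adjusted p = 1), and 0.44 by the title map.

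Of 22 contractile genes tested, 0 were called and the median log2 fold was 0.08. Acta2 had 2324, 4653, 308.2 and 2387 CPM in miR-132 mice 2, 4, 6 and 8, and 5371, 0, 0 and 2861 CPM in control mice 1, 3, 5 and 7. Its groups overlapped, and the 2 control mice at 0 had 0 and 1 wells with Myh11. Among 25 matrix genes, 25 signalling genes and 20 vessel tone genes tested, 0 were called, with medians of 0.04, -0.01 and -0.08. The other-cell marker lists had few tested members: 2 fibroblast, 2 endothelial, 1 oligodendrocyte and 1 astrocyte gene, with 0 called. Summed fibroblast genes lay between 161.5 and 1221 CPM in miR-132 mice and 77.6 and 788 CPM in control mice, and summed endothelial genes between 219.3 and 502 CPM in miR-132 mice and 160.3 and 216.4 CPM in control mice. The fibroblast sums overlapped, whereas the endothelial sums were higher in every miR-132 mouse than in every control mouse, by a narrow gap. The same held for summed matrix genes (20780 to 21537 CPM in miR-132 mice, 16384 to 20721 CPM in control mice). It also held for summed inflammatory mediators (1935 to 2472 CPM and 1269 to 1929 CPM). Sums of every other list overlapped. The part of fibroblast and endothelial genes in the other folds was not tested. The remaining lists also had 0 genes called: the median log2 fold was 0.72 for 10 interferon and MHC genes, 0.77 for 4 inflammatory mediators, 0.31 for 4 intermediate filament genes, 0.23 for 3 genes linked to mitochondria and low oxygen, and 0.10 for 16 immediate early genes. No microglial, neuroblast or oligodendrocyte precursor gene was tested.

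Of 18 published targets of miR-132, 10 were tested, 0 were called, 4 had folds above 0 and 6 below it, and the median log2 fold was -0.11. Rasa1, which encodes a Ras GTPase-activating protein and had the lowest p of the list, was found in 5 of 41 mural wells of miR-132 mice and 1 of 47 of control mice (log2 fold 4.54 ± 3.05 SE, adjusted p = 1). Its fold ranged from 3.08 without miR-132 mouse 6 to 7.42 without control mouse 1, and was 1.74 by the title map and 0.85 with limma on mean log2(CPM + 1). Target genes of this kind were low in mural wells: 8 of the 18 were at 50 CPM in at least 10% of them, and none in 50% of them. The level of miR-132 itself is not measured by these libraries.

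The 10 genes with the lowest p were Mum1, Tns2, Prickle2, Saa1, Ift52, Pik3r4, Runx2, Plxnb2, Porcn and Ppm1b. Each had an adjusted p of 1 (edgeR). With wells mapped by title, 8 of the 10 folds had the other sign and 0 of the 10 had an unadjusted p under 0.05, and the values that follow are those of the description map. Plxnb2, a receptor for semaphorins, had 323.6, 436.1, 251.5 and 298.7 CPM in miR-132 mice 2, 4, 6 and 8, and 808.4, 661.1, 944.5 and 603.5 CPM in control mice 1, 3, 5 and 7. Every miR-132 mouse lay below every control mouse, with a log2 fold of -1.19 ± 0.36 (SE, unadjusted p = 0.00893). Plxnb2 was at 50 CPM in 19 of 41 miR-132 wells and in 24 of 47 control wells, and in 1 of the 5 wells of control mouse 3. By the title map its fold was 0.28. Tns2, a focal adhesion protein gene, averaged 1121 ± 556 CPM in miR-132 mice and 2221 ± 713 CPM in control mice (SD, n = 4 each, log2 fold -1.04 ± 0.28), and 1 miR-132 mouse reached the control range. By the title map its fold was -0.18. It was at 50 CPM in 34 of 41 miR-132 wells and in 47 of 47 control wells.

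Mum1 had 317.6, 169.9, 189.2 and 192.6 CPM in miR-132 mice 2, 4, 6 and 8, and 2.16, 5.96, 1.78 and 7.40 CPM in control mice 1, 3, 5 and 7. The groups did not overlap, with a log2 fold of 5.66 ± 1.14 (SE, unadjusted p = 0.000704). The value rested on few wells: 8 of 41 members in miR-132 mice had it at 50 CPM (435 to 1549 CPM) and 1 of 47 in control mice (145.8 CPM). In other kept wells it was at 50 CPM in 15.9% in miR-132 mice and 21.8% in control mice. In the test of the difference between the fold in mural and in other kept wells it had the lowest p, with a difference of 6.40 ± 1.06 (adjusted p = 0.999). With wells mapped by title the fold was -1.78.

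Most of the remaining genes likewise rested on a few wells. Saa1, an acute-phase serum amyloid gene, had no count in the 41 miR-132 wells. It had 22.7, 197.3, 60.6 and 21.2 CPM in control mice 1, 3, 5 and 7. Pooled over control mice, Saa1 was 390.45 times a floor of 3 counts over the miR-132 group. It was at 50 CPM in 7 of 47 control wells and in 0 of the 570 other kept wells. Pooled Ift52 of control mice was 215.9 times the same floor, from 5 control wells. The floor counts reads, PCR copies included, and leaves out the spread over wells, so neither value is a lower bound on a fold. By the title map the log2 folds were 1.20 for Saa1 and -1.77 for Ift52. Pik3r4 and Ppm1b were each at 50 CPM in 5 miR-132 wells and in no control well. Porcn was at 50 CPM in 6 control wells and Runx2, a transcription factor gene, in 2, and neither reached it in a miR-132 well. In other kept wells of miR-132 and control mice, Pik3r4 was at 50 CPM in 13.6% and 14.9%, and Ppm1b in 7.80% and 9.45%. Porcn reached it there in 20.3% and 20.4%, Ift52 in 9.49% and 10.9%, and Runx2 in 0% and 0.364%. Prickle2 averaged 60.1 ± 38.8 CPM in miR-132 mice and 322.2 ± 202.1 CPM in control mice (SD, n = 4 each), and control mouse 7 lay within the miR-132 range.

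**Figure D4:**
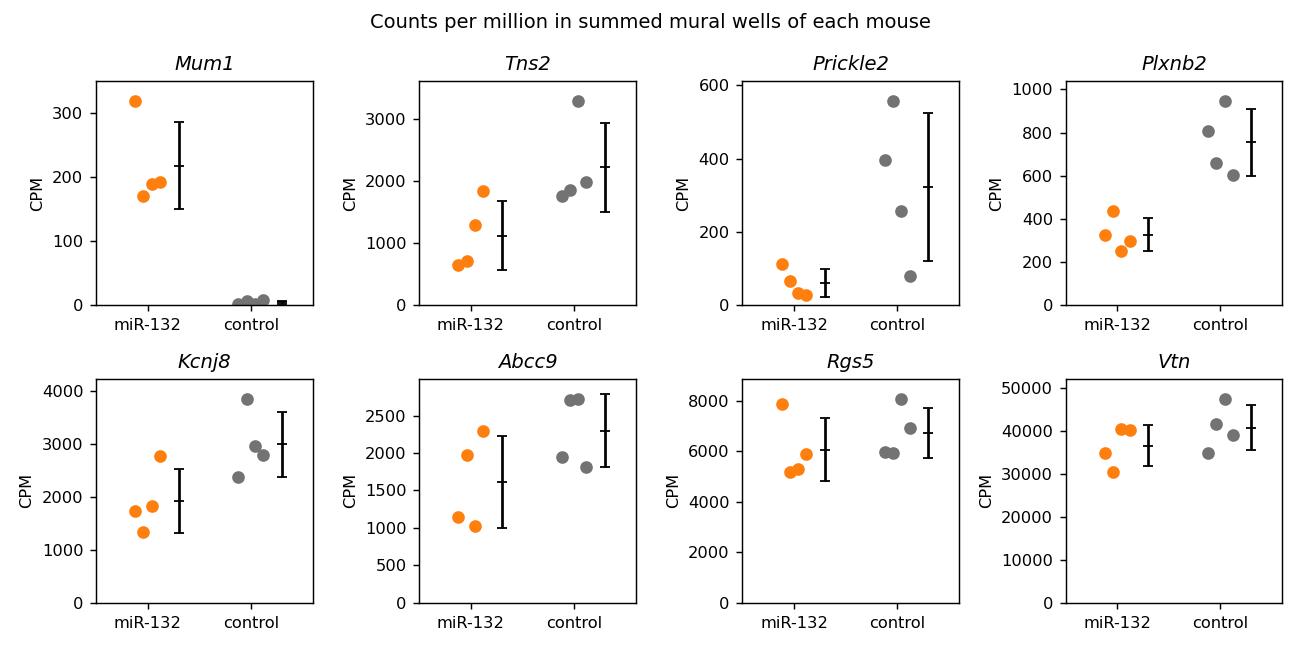
CPM in the summed mural wells of each mouse for 8 genes, with 4 miR-132 mice on the left (orange) and 4 control mice on the right (grey), and mean ± SD in black beside each group. Groups do not overlap for Mum1 and Plxnb2 and overlap for the other 6 genes.

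**Figure D5:**
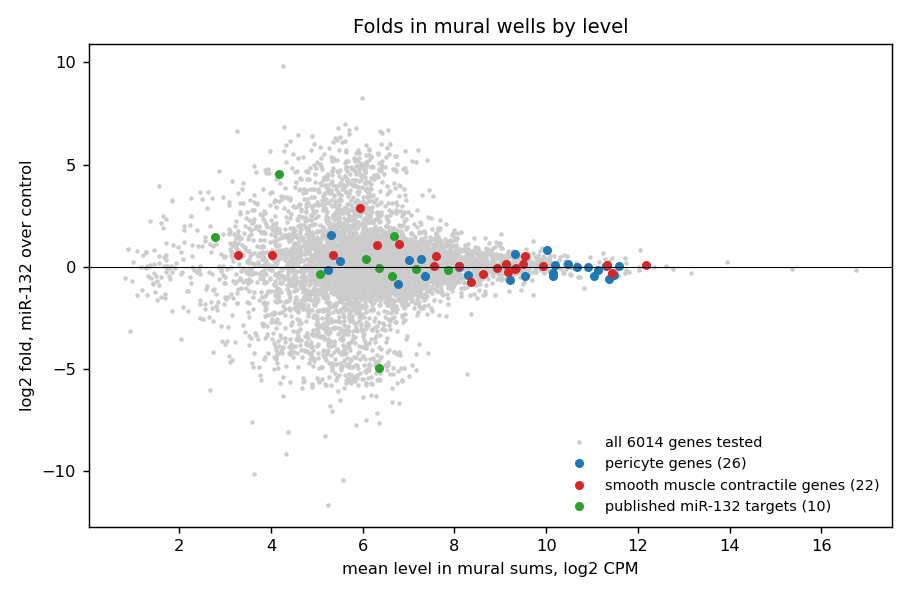
Log2 fold of miR-132 over control (vertical) against mean level in log2 CPM (horizontal) for 6014 genes tested in mural wells, with 26 pericyte, 22 contractile and 10 target genes in colour. Folds spread widest at low levels, and the median of the pericyte genes is -0.02.

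In mural wells without the smooth muscle subset, from 7 mice with at least 5 such wells (miR-132 mouse 4 had fewer and was left out), edgeR called 0 of 5715 genes (0%), 69 had an unadjusted p under 0.05 and DESeq2 called 61. The difference between the mimic's fold in mural and in other kept wells was called for 0 of 6188 genes (0%), with 130 at an unadjusted p under 0.05. Between 19 and 17 April, edgeR called 0 of 6014 genes in mural wells (0%), and 84 had an unadjusted p under 0.05. All 16 immediate early genes tested had folds below 0 on 19 April against 17 April, with a median of -1.31 beside 0.20 over all genes, and 2 of them had an unadjusted p under 0.05 (edgeR, 0 called). DESeq2 was not run for these last 2 tests.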

How the data were processed

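Single cells were prepared with Smart-seq2, a full-length plate method without molecular identifiers, per the labels' protocols. The authors deposited unnormalised whole-number read counts, with 32679 genes in rows and 768 wells in columns. FastQC, STAR, Subread, featureCounts 1.5.1, Seurat 2.3.1 and build mm10 are named in the submitters' processing notes, and their settings are not given in the sources used here. The method does not mark strand, so a gene and its antisense partner cannot be told apart. PCR copies are counted as reads.

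Wells with at least 50000 counts, 1000 to 6000 genes and at most 15% mitochondrial counts were kept. CPM were computed per well over all genes, and exon lengths came from GENCODE M21. No doublet caller was run. Members and gene lists were chosen with earlier results of these data known. Genes were named by list, by lowest p (10 genes), by largest difference between sets of wells, and by correlation. Counts were summed per mouse with at least 5 wells. Testing covered genes seen in 10% of wells that also passed filterByExpr, and used edgeR 4.0.16 (TMM, quasi-likelihood, date as covariate, two-sided, Benjamini-Hochberg, 0.05; R 4.3.3). DESeq2 1.42.0 and limma 3.58.1 were alternatives. The mouse is the replicate, and shares were compared by exact permutation over 70 splits (scipy 1.17.1, Python 3.11.15). With a low simulated spread (dispersion 0.1, 6014 genes, mural wells) 36% of 2-fold and 100% of 4-fold changes were recovered, with 10 false calls.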

Additional observations from a re-analysis of the deposited data

Results flagged for a closer look

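Among the named genes, 5 values, from 3 mice, stood apart from the other 3 of their group in mural sums, by a gap to the nearest value that exceeded Dixon's 95% limit for 4 samples. Chance alone gives such a gap in about 5% of groups, and 38 groups were looked at for these genes. Mum1 was highest in miR-132 mouse 2, at 317.6 CPM. Tns2 was highest in control mouse 5, at 3281 CPM, and Runx2 was highest in the same mouse, at 37.7 CPM. Nes was lowest in control mouse 1, at 232.4 CPM. Rasa1 was highest in control mouse 1, at 9.56 CPM.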

How the results depend on the processing

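No paired analysis was possible because the 2 groups share no replicate numbers. No gene reached an adjusted p under 0.05 in any fit that left out a mouse, in each of the 4 tests (counts 0 to 0). DESeq2 called 15 genes in all mural wells and 61 without the smooth muscle subset. Without that subset, keeping every gene with at least 1 count called 1 gene, Fos, and mapping wells by title called 1, Ptgds. Between dates, keeping every gene called 5 (Atf3, Ggt1, Vtn, Fos and Spp1). The difference in mural share ranged from -4.87 to 2.81 points over mice left out, and was 2.75 without mouse 7 and with many-gene wells counted, an alternative chosen after seeing the data. The difference in smooth muscle share ranged from -2.52 to 11.7 points over mice left out and was -10.8 by the title map. The difference in median genes per well ranged from -86 to 85.5 over mice left out and was -185 by the title map (exact permutation p = 0.0286, n = 4 each). By the title map, log2 folds turned to -1.78 for Mum1, 0.10 for Vtn, 0.28 for Plxnb2, 0.78 for Runx2, -3.68 for Ppm1b, -1.21 for Acta2, -0.24 for Myl9, -0.12 for Nes, 0.24 for Prickle2, 0.44 for Abcc9, 1.20 for Saa1, -0.39 for Pik3r4 and 2.94 for Porcn. With limma on mean log2(CPM + 1), folds turned to 0.035 for Rgs4, 0.30 for Vtn, 0.61 for Myh11 and -0.036 for Myl9, and with at least 4 markers to -0.0032 for Acta2. Over mice left out, folds ranged from -0.59 to 1.37 for Myh11, -0.64 to 1.82 for Acta2, -0.0095 to 0.27 for Myl9 and -0.26 to 0.45 for Nes. The cause of these changes was not tested. Few wells per mouse (5 to 24) limit what the sums can show.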
